A study of Mus musculus with 3 samples.

Results

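Mouse genes that still carry provisional names were followed in long-read cDNA libraries of 3 striated muscles. They were taken as all names in the gene count table that end in Rik, or that consist of Gm and digits, and that had at least 5 reads over the 3 libraries together. This rule gave 55 genes, 32 with a Rik name and 23 with a Gm name, of 1567 gene names with that many reads and 48397 names in the table. The table held 23692 Rik and Gm names, of which 167 had any read. The summed reads chose the genes and are given below as a description only. At the threshold, 6 genes had 5 reads: 3632451O06Rik, 4632415L05Rik, 4930402H24Rik, 5830417I10Rik, Gm28610 and Gm8424. Just outside it, 4 genes had 4 reads, namely 2310015D24Rik, A830039N20Rik, Gm14306 and Gm37728.

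A Rik name goes back to a cDNA clone of the RIKEN collection, and a Gm name to a gene model predicted by computer, and either is used until the gene receives a symbol for its function or family. Such names therefore cover long noncoding RNAs, pseudogenes and members of large gene families, but also protein-coding genes that have since been studied and renamed. Long noncoding RNAs, transcripts without a recognised protein product, include in striated muscle some that lie antisense to sarcomere genes.

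RNA came from male C57BL/6 wild-type mice of 8 weeks, from the apex of the heart (cardiac), from the extensor digitorum longus (EDL), a fast-twitch leg muscle, and from the soleus, a slow-twitch calf muscle. Each muscle had 1 library, the sources used here do not give the number of mice behind it, and no difference between muscles has a replicate check. The cDNA was selected for a size of 5 to 10 kb before PacBio Iso-Seq, which reads a cDNA from end to end. The unit counted is the consensus read, which merges full-length reads that were assigned to 1 transcript.

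The libraries held 18302 (cardiac), 19826 (EDL) and 17459 (soleus) consensus reads in genes, so that 1 read stood for 54.6, 50.4 and 57.3 RPM (reads scaled to 1000000 reads in genes). Markers of the labelled muscles were present: the 7 genes of a cardiomyocyte list summed to 2437 reads in the cardiac apex, 40 in EDL and 34 in soleus, and the 7 genes of a fast-fibre list to 56, 1414 and 670. The 4 genes of a slow-fibre list, Myh7, Atp2a2, Myh2 and Myom3, summed to 56, 89 and 667 reads. Of these, Myh2 codes for the fast type IIA myosin, and the fast-fibre list holds Cacna1s, Ryr1 and Neb, genes of skeletal fibres in general. Neither list therefore marks 1 fibre type alone. Nerve and adipocyte markers were at 0 in all 3 libraries, as were the endothelial markers Pecam1 and Cdh5 and the leukocyte marker Ptprc, while Kdr and Ptprb brought the endothelial list to 58, 41 and 39 reads. Lrp1 and Mrc1 brought the blood and immune list to 19, 16 and 15 reads, and the smooth muscle and pericyte list had 19, 26 and 22. The fibroblast and matrix list summed to 72, 52 and 54 reads, with Col3a1 at 0 throughout.

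Most of the provisional names belonged to protein-coding genes. By GENCODE release M21, 34 of the 55 genes were protein coding, 14 were long noncoding RNAs, 3 were pseudogenes and 3 were of other types, and Gm9938 had no entry. RefSeq differs on coding status for Gm37494, which it gives as protein coding, and for Gm14327, Gm14403 and Gm14419, which it gives as a pseudogene or noncoding RNA. For 16 genes the RefSeq table gives another symbol by now. Among these are Oip5os1 for 1700020I14Rik, Norad for 2900097C17Rik, Washc4 for A230046K03Rik, Washc5 for E430025E21Rik, Virma for 1110037F02Rik and Jcad for 9430020K01Rik.

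Annotated transcripts of the provisionally named genes were shorter than those of the other genes detected, although the cDNA had been selected for length. The longest annotated transcript had a median of 5036 nt over the 54 genes with a gene model, against 6251 nt over 1487 other genes with at least 5 reads. It reached 5000 nt in 27 of 54 genes (50%), against 84.0% of the other genes. The median was 5622 nt for the 34 protein-coding genes, of which 23 reached 5000 nt, and 3482 nt for the 14 long noncoding RNAs, of which 2 did. Under 1000 nt were 7 of the 54 genes, the shortest of them Gm24996, an snRNA model of 99 nt, against 5 of the other 1487. The annotated length is that of the gene model and not of the molecules sequenced.

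**Figure D1:**
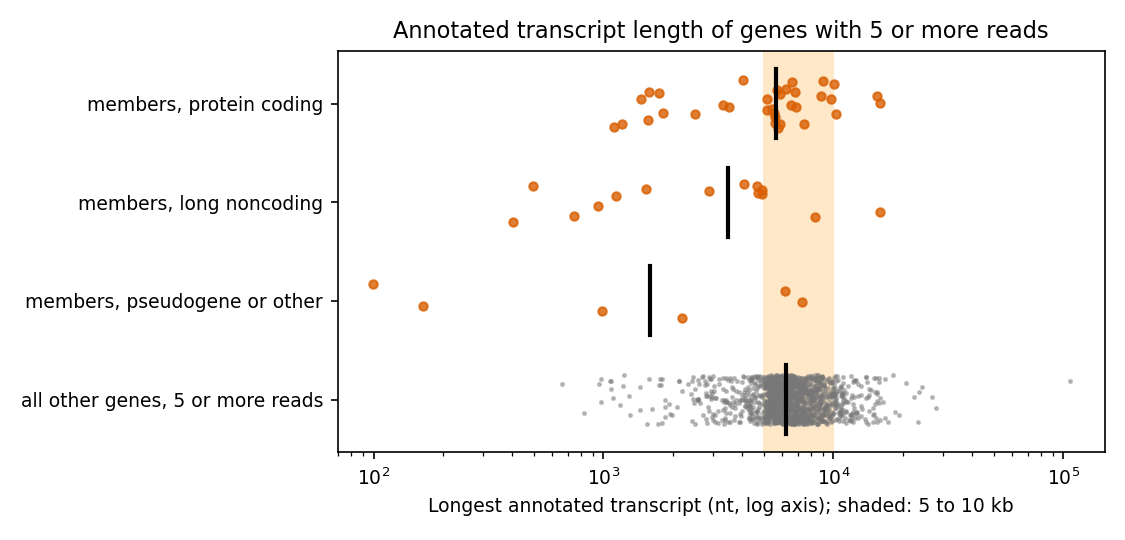
Longest annotated transcript of each gene with at least 5 reads, in nt on a log axis, for provisionally named genes by class (large points) and for all other genes (small points), with black bars at the medians. The long noncoding genes have a median of 3482 nt, left of the shaded range of 5 to 10 kb, against 6251 nt for the other genes.

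Rik genes were read in all 3 muscles more often than Gm genes. Of the 32 Rik genes, 29 (90.6%) had a read in each library, of the 23 Gm genes 13 (56.5%), and of all 1567 genes with at least 5 reads 86.0%. Of the 55 genes, 42 were read in all 3 libraries and 12 in 2 of them, while Gm10435 was read in cardiac muscle alone. Genes at 0 numbered 7 in the cardiac apex, 2 in EDL and 5 in soleus. Most of these had few reads: among genes with 5 to 20 reads, 26 of 38 provisionally named genes (68.4%) were read in all 3 libraries, against 77.1% of all 878 genes in that range. These shares were not tested, since the genes were chosen by the reads themselves.

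The 55 genes together took 351 of the cardiac reads, a share of 1.92% (exact binomial 95% interval 1.72 to 2.13), 494 of the EDL reads, 2.49% (2.28 to 2.72), and 481 of the soleus reads, 2.76% (2.52 to 3.01). The share was thus lowest in cardiac muscle, and its interval there did not meet those of the leg muscles. All intervals given here are at 95% and cover counting error only. They treat each consensus read as 1 molecule, although PCR and the merging of full-length reads come before it. Without 3425401B19Rik, the gene with the widest gap in reads, the shares were 1.88% (1.69 to 2.09) in the heart, 2.28% (2.08 to 2.5) in EDL and 2.22% (2.0 to 2.45) in soleus, and the interval of the heart met those of the leg muscles. The Rik genes carried the difference, with 236 cardiac reads (1.29%, 1.13 to 1.46), 400 EDL reads (2.02%, 1.83 to 2.22) and 402 soleus reads (2.30%, 2.09 to 2.54). The Gm genes lay the other way, with 115 cardiac reads (0.628%, 0.519 to 0.754), 94 EDL reads (0.474%, 0.383 to 0.580) and 79 soleus reads (0.452%, 0.358 to 0.564), and the intervals overlapped. The 34 protein-coding genes took 1.24% in the cardiac apex, 1.74% in EDL and 2.08% in soleus, whereas the 14 long noncoding genes took 0.574%, 0.661% and 0.584%, with overlapping intervals. In tissue RNA, fewer cells of a type and less RNA per cell cannot be told apart.

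**Figure D2:**
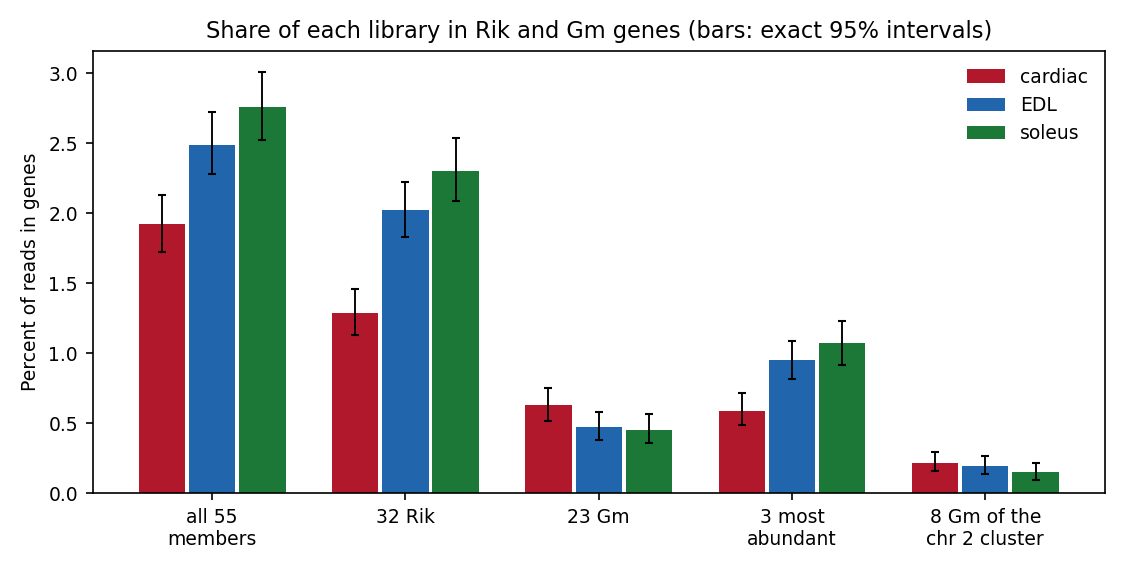
Percent of reads in genes that fell to sets of provisionally named genes in each muscle, with exact 95% binomial intervals on the counts. The 32 Rik genes take 1.29% in the cardiac apex, 2.02% in EDL and 2.30% in soleus, while the 23 Gm genes take 0.628%, 0.474% and 0.452%.

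Most of these genes had too few reads to be judged between muscles, and the 4 that were called differed between the heart and a leg muscle: Gm10435 was higher in the heart, and 3425401B19Rik, 1110002E22Rik and 5031439G07Rik were higher in EDL, soleus or both. Ratios of RPM were taken with exact conditional binomial intervals, and a gene was called when it had at least 20 reads in the pair of libraries and its whole interval was beyond 2-fold. In cardiac muscle over EDL, 12 of the 55 genes had enough reads. Of these, 1 was called higher in cardiac muscle (Gm10435), 2 were called higher in EDL (3425401B19Rik and 5031439G07Rik) and 9 were called in neither direction. Over the whole table of 500 genes tested, 3.20% were called higher in the cardiac apex, 5.20% higher in EDL and 8.40% in either direction. In cardiac muscle over soleus, again 12 genes had enough reads, and 1 was called higher in cardiac muscle (Gm10435) and 2 higher in soleus (3425401B19Rik and 1110002E22Rik). The background was 3.38% higher in the cardiac apex, 4.86% higher in soleus and 8.25% in either direction, of 473 genes. In EDL over soleus none of 12 genes was called, against 0.405% of 494 genes higher in EDL, 1.42% higher in soleus and 1.82% in either direction. The comparisons of cardiac muscle share the cardiac library, and genes with high reads in 1 library alone passed the read minimum through it, so these counts are descriptions.

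Across all 55 genes the shift was small. With 0.5 added to each count, the median log2 ratio of cardiac muscle over EDL was -0.37, with 19 genes above 0 and 36 below, against 0.01 over the 1567 genes with at least 5 reads. The median log2 ratio of cardiac muscle over soleus was -0.36, with 18 genes above 0 and 37 below, against -0.07. For EDL over soleus it was 0.00, with 26 above and 29 below, against -0.11. Over genes with at least 10 reads alone, the median for cardiac muscle over soleus was -0.07, so that the value of -0.36 rested on the genes with the fewest reads. Over the same genes the median for cardiac muscle over EDL stayed at -0.37, and that for EDL over soleus was -0.03.

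**Figure D3:**
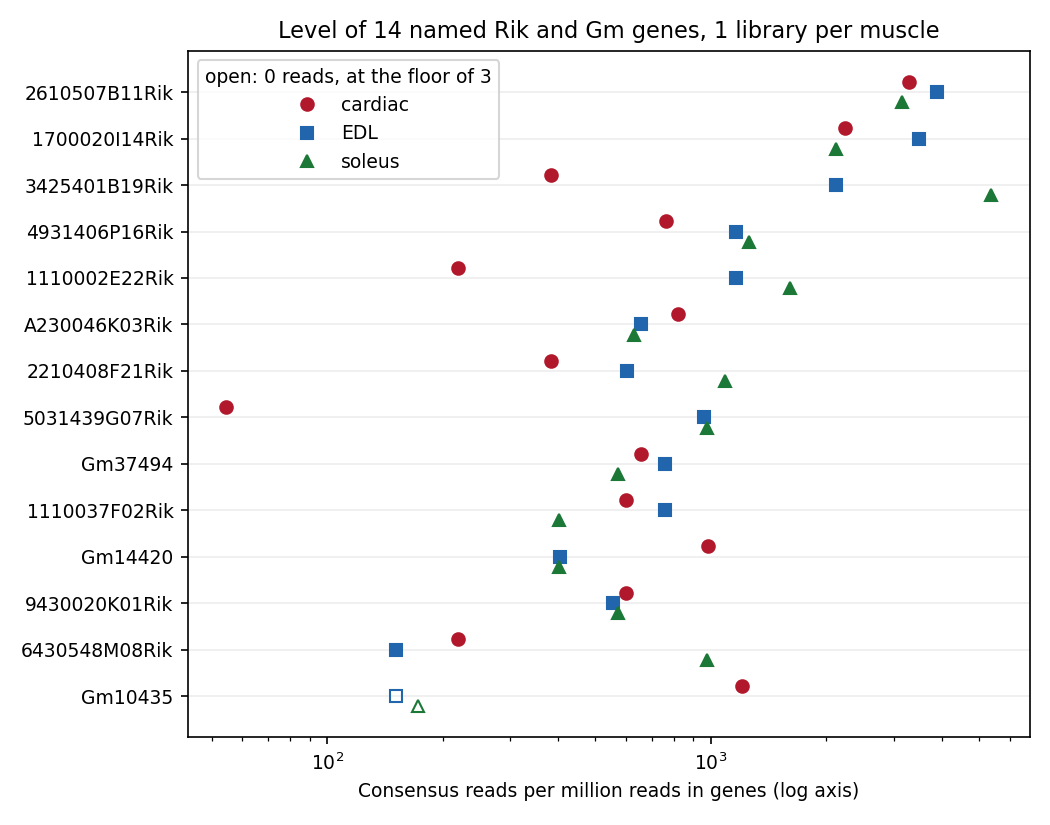
Level of the 14 genes named by rule, in RPM on a log axis, 1 point per library, with open symbols at the level of 3 reads where a library had 0. The points of 3425401B19Rik, 1110002E22Rik and 5031439G07Rik in cardiac muscle lie left of both leg muscles, and Gm10435 is filled in cardiac muscle alone.

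The clearest difference was in 3425401B19Rik, also named Cefip, a protein of the sarcomeric Z-disc that binds FHL2 and that was named for its enrichment in the heart. Its gene lies on chromosome 14 at 32659119 to 32685293 (GRCm38, minus strand), and its longest transcript has 5547 nt. It had 7 reads in the cardiac apex, 42 in EDL and 94 in soleus, or 382, 2118 and 5384 RPM. The cardiac library was lowest and soleus highest. The ratio was 0.181 for cardiac muscle over EDL (0.0684 to 0.406) and 0.0710 for cardiac muscle over soleus (0.0278 to 0.152), both called. The ratio of EDL over soleus was 0.393 (0.267 to 0.572), an interval that excludes equal abundance but not 2-fold. Summed reads of the fast-fibre list were also lowest in cardiac muscle, and those of the slow-fibre list, which includes Myh2, highest in soleus. Neither list marks 1 fibre type alone, and the part of fibre type in this result was not tested.

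In 1110002E22Rik, a protein-coding gene on chromosome 3 (138065052 to 138081506, plus strand) with a transcript of 9741 nt, there were 4 reads in the cardiac apex, 23 in EDL and 28 in soleus. The leg muscles were again higher and did not differ beyond counting error, with a ratio of EDL over soleus of 0.723 (0.398 to 1.30). Cardiac muscle over soleus was called at 0.136 (0.0347 to 0.390). Cardiac muscle over EDL, at 0.188 (0.0474 to 0.551), missed the 2-fold bar. The gene 5031439G07Rik, also named mKIAA0930, lies on chromosome 15 (84943936 to 84988551, minus strand) and codes for a protein. It had 1 read in the cardiac apex, 19 in EDL and 17 in soleus. The ratio of cardiac muscle over EDL was 0.0570 (0.00137 to 0.359) and was called. That of cardiac muscle over soleus was 0.0561 (0.00134 to 0.358), but the pair held only 18 reads and was not open to a call. EDL and soleus had nearly the same level, with a ratio of 0.984.

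**Figure D4:**
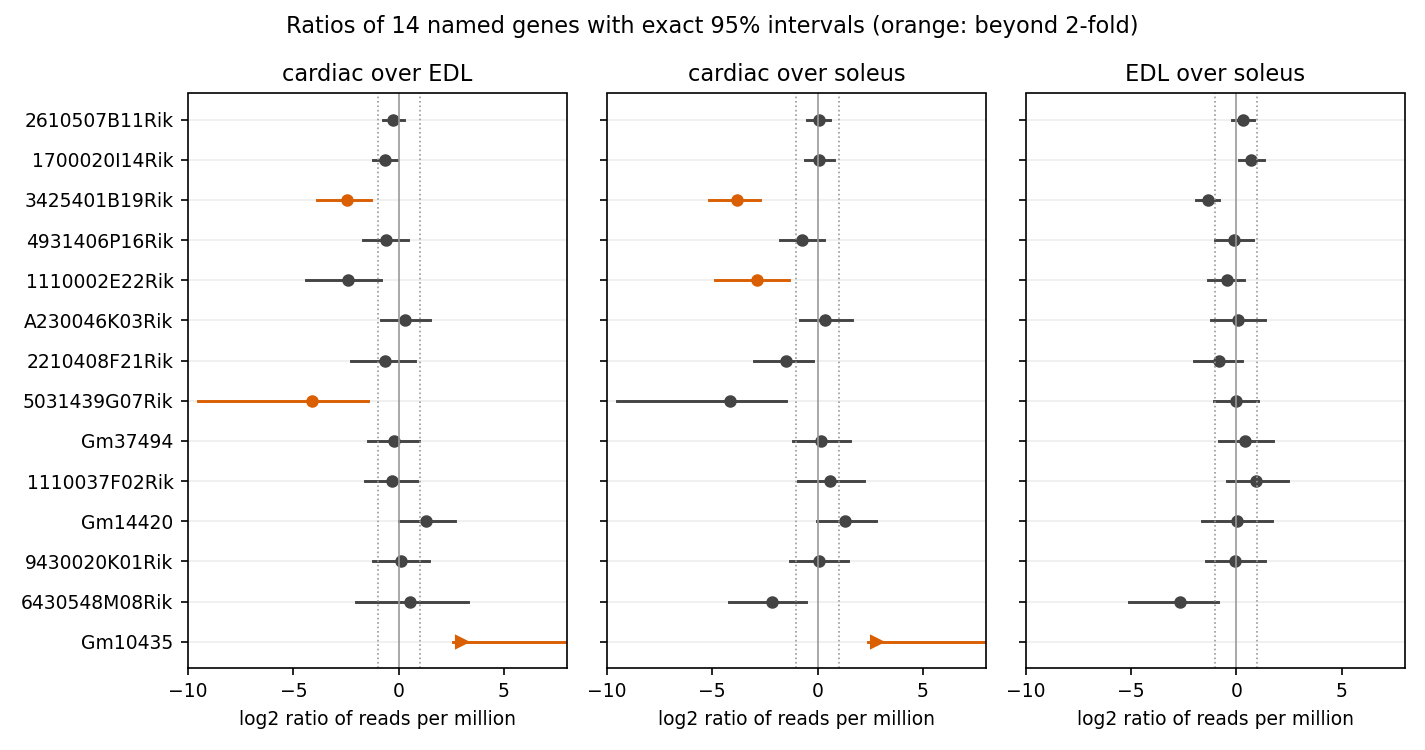
Log2 ratio of RPM for the 14 genes named by rule in the 3 pairs of muscles, with exact 95% intervals. Solid lines mark equal abundance and dotted lines 2-fold, orange marks a call, a triangle is a lower bound against 3 reads, and intervals running off the panel have no finite upper end. No gene is called in EDL over soleus.

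The promoters of the 3 protein-coding genes called lower in the heart than in a leg muscle are shown because these genes passed the call in the same direction. Other protein-coding genes also had their fewest reads in the heart without passing it. Each runs from 250 bases before to 50 bases after the start site in RefSeq (GRCm38.p6), and 35 of the 55 genes had such an entry. Capitals mark matches, on either strand, to the E-box CAGCTG of muscle regulatory factors, to the TATA box TATAAA or to the GC box GGGCGG. The MEF2 site and the CArG box of serum response factor were also searched on either strand and had no match in the 3 sequences.
3425401B19Rik: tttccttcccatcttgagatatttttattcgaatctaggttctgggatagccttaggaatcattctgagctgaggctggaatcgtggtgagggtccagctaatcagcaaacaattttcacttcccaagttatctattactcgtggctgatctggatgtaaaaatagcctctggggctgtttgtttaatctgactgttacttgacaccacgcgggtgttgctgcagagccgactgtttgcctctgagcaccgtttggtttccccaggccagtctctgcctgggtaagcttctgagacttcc
1110002E22Rik: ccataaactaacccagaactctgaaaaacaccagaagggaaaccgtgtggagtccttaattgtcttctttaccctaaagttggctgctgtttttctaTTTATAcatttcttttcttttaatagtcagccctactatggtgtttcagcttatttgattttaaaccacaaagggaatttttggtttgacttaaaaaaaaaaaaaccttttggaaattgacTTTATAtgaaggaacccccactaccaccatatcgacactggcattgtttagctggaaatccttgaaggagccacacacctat
5031439G07Rik: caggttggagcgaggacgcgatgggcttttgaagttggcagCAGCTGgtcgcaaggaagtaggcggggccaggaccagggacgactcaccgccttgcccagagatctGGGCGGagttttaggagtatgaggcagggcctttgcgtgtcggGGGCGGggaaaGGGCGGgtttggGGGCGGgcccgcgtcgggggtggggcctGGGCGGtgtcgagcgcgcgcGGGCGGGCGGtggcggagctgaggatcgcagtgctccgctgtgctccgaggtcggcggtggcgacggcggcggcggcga
They lie at chr14:32685223-32685522 on the minus strand, chr3:138061992-138062291 on the plus strand and chr15:84987922-84988221 on the minus strand. The window of 3425401B19Rik held no match. That of 1110002E22Rik held 2 matches to TATAAA, at positions -153 and -32 from the start site, both on the reverse strand as TTTATA. That of 5031439G07Rik held 1 match to CAGCTG and 7 to GGGCGG, of which the last 2 overlap each other. Of 32851 mouse promoters of the same length, 16.3% held CAGCTG, 13.6% TATAAA, 35.7% GGGCGG, 3.19% a MEF2 site and 1.63% a CArG box. The 3 windows thus had no searched motif in common. RefSeq gives 2 promoters for 5031439G07Rik, of which the upstream 1 is shown, and its start for 1110002E22Rik lies upstream of the GENCODE gene.

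The only provisionally named gene read in a single muscle was Gm10435, a long noncoding RNA of the antisense class on chromosome 11, with a longest annotated transcript of 2878 nt. It had 22 reads in cardiac muscle and 0 in EDL and soleus, or 1202 RPM. Against EDL the cardiac level was at least 7.94-fold higher, and against soleus at least 7.0-fold higher, taking 3 reads in the leg library as the floor, and the lower ends of the exact intervals were 5.93 and 5.23. The cardiomyocyte markers were also far higher in cardiac muscle than in the leg muscles, and whether cell type makes up the difference was not tested.

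The deposited exon tables divide Gm10435 into 8 exonic parts, and all 8 were covered by the same number of reads, 22 consensus and 138 full-length reads in cardiac muscle and 0 in EDL and soleus. The last part, of 678 nt, was absent from the authors' annotation, and every cardiac read held it. With it, the exonic parts summed to 3604 nt.

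By reads, 2610507B11Rik came first of the 55 genes. It is also named Kiaa0100, on chromosome 11 at 78261752 to 78290623 (plus strand), and codes for a large protein of the bridge-like lipid transfer family. It had 60 reads in the cardiac apex, 77 in EDL and 55 in soleus, or 3278, 3884 and 3150 RPM. The 3 muscles did not differ beyond counting error, with ratios of 0.844 for cardiac muscle over EDL (0.592 to 1.20), 1.04 for cardiac muscle over soleus (0.710 to 1.53) and 1.23 for EDL over soleus (0.861 to 1.78). Another gene of that family, 4932438A13Rik or Tweek, with a transcript of 15883 nt, had 7, 10 and 5 reads.

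The second, 1700020I14Rik, is the long noncoding RNA Oip5os1, known as Cyrano, which in mouse binds the microRNA miR-7 and brings about its degradation. It lies on chromosome 2 at 119594297 to 119607502 (plus strand) and has an annotated transcript of 8300 nt, within the selected size range. It had 41 reads in the cardiac apex, 69 in EDL and 37 in soleus, or 2240, 3480 and 2119 RPM. EDL was the highest of the 3, and cardiac muscle and soleus did not differ beyond counting error (ratio 1.06, 0.661 to 1.70). The ratio was 0.644 for cardiac muscle over EDL (0.426 to 0.961) and 1.64 for EDL over soleus (1.09 to 2.52). Both intervals excluded equal abundance and neither excluded 2-fold.

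The site by which Cyrano pairs with miR-7 is shown together with the mature microRNA, because it is the element for which this transcript is known. The microRNA is from RefSeq, with its seed, bases 2 to 8, in capitals. The site is from the GENCODE M21 transcript at chr2:119602137-119602161 on the plus strand, with the match to the seed in capitals.
mmu-miR-7a-5p: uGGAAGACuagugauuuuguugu
1700020I14Rik: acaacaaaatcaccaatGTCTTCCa
In the best alignment, 22 of the 23 bases of the microRNA had their complement in this site of 25 nt. The transcript held 2 matches to the seed in all. Whether this site was inside the reads of a given muscle is not shown by the gene counts.

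A wider rule, an interval wholly on 1 side of equal abundance with at least 10 reads in the pair, added genes with fewer reads or with intervals that reach inside 2-fold. In cardiac muscle over EDL, 21 of the 55 genes could be judged, with 2 higher in cardiac muscle and 4 in EDL. The background over 908 genes was 8.37% higher in the heart, 10.6% higher in EDL and 18.9% in either direction. In cardiac muscle over soleus, 21 genes could be judged, with 1 higher in cardiac muscle and 5 in soleus, against 6.69% and 11.5% of 897, or 18.2% in either direction. In EDL over soleus, 24 genes could be judged, with 1 higher in EDL and 2 in soleus, against 3.71% and 5.06% of 890, or 8.76% in either direction.

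Beyond the genes already described, this rule picked out Gm14420, 2210408F21Rik and 6430548M08Rik. The zinc finger gene Gm14420, now Zfp970, had 18 reads in the cardiac apex, 8 in EDL and 7 in soleus, and the ratio of cardiac muscle over EDL was 2.44 (1.01 to 6.48). The same gene had a ratio of 2.45 for cardiac muscle over soleus (0.978 to 6.95), an interval that includes equal abundance. The long noncoding RNA 2210408F21Rik, on chromosome 6, had 7, 12 and 19 reads, and its ratio of cardiac muscle over soleus was 0.351 (0.125 to 0.873). The protein-coding gene 6430548M08Rik, or Kiaa0513, on chromosome 8, stood higher in soleus than in both other muscles, with 4 reads in the cardiac apex, 3 in EDL and 17 in soleus. Its ratios were 0.224 for cardiac muscle over soleus (0.0549 to 0.688) and 0.155 for EDL over soleus (0.0292 to 0.537).

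The other abundant genes had intervals that included equal abundance in every pair. 4931406P16Rik, now Garre1, an effector of Rac and RhoG GTPases, had 14 reads in the cardiac apex, 23 in EDL and 22 in soleus. A230046K03Rik, now Washc4, a subunit of the WASH complex that builds actin on endosomes, had 15, 13 and 11 reads. In RPM, Garre1 stood at 765, 1160 and 1260 and Washc4 at 820, 656 and 630. 1110037F02Rik, now Virma, a subunit of the complex that writes m6A marks on RNA, had 11, 15 and 7 reads. 9430020K01Rik, now Jcad, a protein of endothelial cell junctions, had 11, 11 and 10 reads, which gave ratios of 1.08, 1.05 and 0.969. Gm37494, a long noncoding RNA in GENCODE but a protein-coding gene in RefSeq under the symbol Gm33989, had 12, 15 and 10 reads. With these few reads the intervals were wide: that of Virma reached from 0.724 to 5.47 for EDL over soleus.

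Further protein-coding genes had 5 to 22 reads each, and those whose product has a known role are described by it, in the order cardiac muscle, EDL and soleus. In trafficking between membranes, Washc5 (E430025E21Rik), also of the WASH complex, had 1, 7 and 4 reads. Relch (2310035C23Rik), which acts with Rab11 in cholesterol transport, had 11, 6 and 5 reads, and Chmp1b2 (2610002M06Rik), a member of the ESCRT-III family, 4, 6 and 4. Washc5 had its fewest reads in cardiac muscle, whereas Relch had its most there. Among enzymes, Aopep (2010111I01Rik), an aminopeptidase, had 4, 5 and 11 reads. Hectd4 (Gm15800), a putative ubiquitin ligase, had 6, 3 and 6 reads, and Dglucy (9030617O03Rik), the D-glutamate cyclase, 1, 4 and 4. These counts are too low to order the muscles. Among genes of cilia and centrosomes, Talpid3 (2700049A03Rik) had 4, 3 and 5 reads and Kiaa0556 (D430042O09Rik) 1, 3 and 6. Gm4070, also called VLIG-1, of the very large interferon-inducible GTPases, had 7, 2 and 7 reads, but 98.6% of the 31-base words of its transcripts also occur in other genes, mainly in Gvin1, so reads of these genes may not be told apart. Zfp974 (1700049G17Rik), a zinc finger gene, had 2, 2 and 2 reads. The other protein-coding genes outside the block on chromosome 2 likewise had few reads. 2510009E07Rik had 4, 7 and 5 reads, 2900026A02Rik had 2, 8 and 5, and 4930453N24Rik had 3, 4 and 4. 9330159F19Rik had 0, 6 and 1 reads, Armh4 (3632451O06Rik) had 0, 3 and 2, and 4930402H24Rik had 3, 2 and 0.

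Among the long noncoding RNAs other than Oip5os1 and Gm10435, B230354K17Rik had 6 reads in the cardiac apex, 5 in EDL and 12 in soleus. Norad (2900097C17Rik), which binds Pumilio proteins, had 2, 3 and 2 reads, and it shared 44.7% of its 31-base words with other genes, above all Gm7292. Gm20186 had 5, 8 and 7 reads on a model of 741 nt, A330023F24Rik had 2, 3 and 1, and Gm26740 had 0, 4 and 2. None of these had an interval off equal abundance. Of 25 long noncoding RNAs looked for by symbol, 23 were in the table under that symbol and 3 had a read: Neat1 with 6, 11 and 5, Kcnq1ot1 with 1, 1 and 2 and Airn with 1, 0 and 0. The 2 not found by symbol were Oip5os1 and Norad, which the table holds under Rik names. Malat1 was at 0 in all 3 libraries.

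A block of 8 zinc finger genes on chromosome 2 supplied 8 of the 23 Gm names, and its genes are close in sequence to other genes. Gm14420 was first among them by reads. Gm14325 had 4 reads in the cardiac apex, 8 in EDL and 4 in soleus, Gm14295 had 2, 5 and 6, and Gm14326 had 3, 6 and 3. Gm14327 had 8, 1 and 1 reads, Gm14410 had 1, 4 and 2, Gm14419 had 0, 4 and 3, and Gm14403 had 4, 2 and 0. Gm14420, Gm14327 and Gm14403 thus had most reads in cardiac muscle, Gm14325, Gm14326, Gm14410 and Gm14419 in EDL, and Gm14295 in soleus. Among pairs with at least 10 reads, only Gm14420 in cardiac muscle over EDL had an interval off equal abundance. The 8 genes together had 40 reads in cardiac muscle (0.219%, 0.156 to 0.297), 38 in EDL (0.192%, 0.136 to 0.263) and 26 in soleus (0.149%, 0.0973 to 0.218), which did not differ beyond counting error.

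Between 57.0% (Gm14403) and 96.4% (Gm14419) of the 31-base words in transcripts of these 8 genes also occur in another gene, against a median of 1.01% over the 54 provisionally named genes with a transcript. The sum over the block is therefore less open to misassignment among its members than the reads of any member. It gives no such protection against genes outside these 8. The gene sharing most words lay outside them for Gm14325 and Gm14326 (Gm14399), Gm14327 and Gm14420 (Gm14288), Gm14403 (Gm4631) and Gm14410 (Gm14308). Gm14295 and Gm14419 shared most words with each other. How many reads were misassigned between the block and outside genes was not tested. Over all 54 genes, 16 shared at least 10% of their words with another gene. The called genes were not among them: the share was 0.287% for 3425401B19Rik, 0.708% for 5031439G07Rik and 0 for 1110002E22Rik and Gm10435.

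Several short models lie within or against abundant muscle genes. Gm13938, of 493 nt and antisense to Ttn, with 91.9% of its exonic bases overlapping exons of that gene, had 5 reads in the cardiac apex, 4 in EDL and 0 in soleus. Ttn had 672, 1264 and 527 reads, so that the antisense model had 0.739% of the reads of the pair in cardiac muscle (0.240 to 1.72) and 0.315% in EDL (0.0860 to 0.806). In soleus its upper end was 0.698%. Myhas (Gm12300), the antisense RNA of the myosin heavy chain cluster, overlaps Myh1 and had 0 reads in the cardiac apex, 2 in EDL and 4 in soleus, where Myh1 had 4, 119 and 100. Both antisense RNAs were thus a few percent or less of all reads of the pair in the libraries where the sense gene was abundant. Not every Ttn read reached the span of Gm13938. Ttn parts within that span were each covered by 4 to 75 consensus reads in cardiac muscle, 14 to 185 in EDL and 0 to 29 in soleus. Against this coverage the share of Gm13938 would be larger, and its 0 reads in soleus set no narrow limit.

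Other models share the strand of the gene around them. Gm43359 lies in an intron of Atp2a2, which codes for the calcium pump of heart and slow fibres, and had 5 reads in the cardiac apex, 0 in EDL and 2 in soleus, while Atp2a2 had 13, 0 and 21. Both genes lie on the minus strand. The exon table lists a part of Atp2a2, absent from the authors' annotation, that ends at the last base of Gm43359 and spans that model whole. This part has 5874 nt (chromosome 5, 122482800 to 122488673). It was held by 6 of 9 covering consensus reads in cardiac muscle and by 2 of 4 in soleus, and no EDL read covered it. Reads of Gm43359 and of this part of Atp2a2 cannot be told apart in the gene counts. Gm24996, in an intron of Nfe2l2, had 3, 6 and 3 reads where Nfe2l2 had 1, 1 and 0. B930095G15Rik, within Farp1, had 2, 3 and 2 reads where Farp1 had 3, 0 and 1. In both cases more reads were assigned to the model inside than to its host in EDL and soleus. Gm24996 is an snRNA model of 99 nt, and the cDNA was selected for 5 to 10 kb, so its reads need not be that snRNA. Reads of either model and of host transcripts that keep the intron cannot be told apart in the gene counts.

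Exon use could not be compared for most of these genes. In the authors' lists, 18 of the 55 genes passed their minimum of 10 consensus reads in some library, 15 of them Rik genes. Only 4 stood in the final list of 686 genes with exon tables: Gm10435, Gm14420, Gm37494 and B230354K17Rik, the last a Rik name that had stayed in although names ending in Rik were dropped. These 4 genes had 53 exonic parts of 27271. None of the 53 parts was covered by 30 consensus reads in any library, so none was tested for a difference in use. Over the whole exon table, by Fisher's exact test (full-length reads) with Benjamini-Hochberg adjustment, 5.04% of 4762 parts were called in cardiac muscle over EDL, 4.43% of 4736 in cardiac muscle over soleus and 1.16% of 4935 in EDL over soleus. With a coverage of 10 consensus reads, 22 parts of 3 of the genes were tested and none was called, and the differences in use were at most 8.22 points for cardiac muscle and EDL, 12.7 points for cardiac muscle and soleus and 6.76 points for EDL and soleus.

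The exon tables also show the structure of 3 of the 4 genes. In Gm37494 the upstream part at 39552525 to 39552611 of chromosome 7 was held by 5 of 11 consensus reads in the cardiac apex, 6 of 11 in EDL and 5 of 7 in soleus, so that reads with and without it were present in each muscle. By full-length reads it was held by 31 of 39, 36 of 43 and 23 of 28, a larger and more even share. The next part, at 39553228 to 39553332, was held by 10 of 12 consensus reads in cardiac muscle and by all 15 in EDL and all 10 in soleus. By full-length reads it was held by 38 of 40 in cardiac muscle and by all in EDL and soleus. Gm14420 had 6 annotated parts and 20 parts absent from the authors' annotation, of which 18 lay outside its gene model, spread from 175479844 to 178039248 of chromosome 2, and each of these was covered by at most 3 consensus reads. In B230354K17Rik all 3 annotated parts were held by every read that covered them. By full-length reads over its best covered part, Gm14420 had 135 in the cardiac apex, 49 in EDL and 29 in soleus. Scaled to the sum of such reads over all genes with exon tables, the ratio was 2.82 for cardiac muscle over EDL. For cardiac muscle over soleus it was 5.89. Its consensus reads merged 6.75 full-length reads each in the cardiac apex, 4.45 in EDL and 3.62 in soleus. Summed over all genes with exon tables, the same measure was 6.09, 5.94 and 7.78. The gene was thus near its library in cardiac muscle and farthest below it in soleus.

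Other provisional names, made of letters and the digits of a sequence record, were few. Of these, 11 had a read and 5 had at least 5 reads. AI314180 had 59 reads in the cardiac apex, 59 in EDL and 42 in soleus, and AU022252 had 10, 16 and 10.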

How the data were processed

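Consensus reads aligned to mm10 were counted with htseq-count under their gene names, per the authors' deposited protocol, and the submitters' processing notes name STAR 2.5.0am. That protocol gives no strand option, and the default of htseq-count uses strand. The authors deposited raw counts per gene, without scaling. The authors' deposited counts of consensus and full-length reads per exonic part, on annotation release 85, give the reads that cover a part and those that hold it, and the deposited fraction is their ratio; only the counts were used.

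Reads in no annotated gene (5.12% of cardiac, 3.95% of EDL and 3.14% of soleus consensus reads) and reads with several genes or places (4.66%, 4.97% and 5.49%) stayed out of the totals. Gene models came from GENCODE M21, another release than the authors', and 43 genes matched by name, 11 by a RefSeq synonym and 1 not at all. Groups follow the tissue label. Ratios, their exact conditional binomial intervals, exact Clopper-Pearson shares and Fisher's exact tests on exonic parts were computed over the whole tables with SciPy 1.17.1 and statsmodels 0.14.6, and the calling rule was tested on simulated data. No p-value across genes was computed. The 55 genes, the marker lists and the list of long noncoding RNAs were chosen with earlier results of these data known. Genes named with values were the 12 with most reads, those called, those with an interval off equal abundance and those with at least 8 reads all in 1 library; other genes were named after their values were seen. Alternatives changed the scaling, the read minimum, the pseudocount, the fold bar and the unit counted. 1 gene that overlaps a named gene is not reported here.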

Additional observations from a re-analysis of the deposited data

How the results depend on the processing

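Ratios rest on few reads, so counting error limits them, and each muscle has 1 library. No paired analysis was possible because each muscle had 1 library, and none could be left out. Alternatives numbered 132, but for called ratios they consisted of both other scalings only. These moved the ratios of a pair by at most 0.11 on the log2 scale, too little to turn a ratio beyond 2-fold. That no called ratio changed direction is therefore no check of the calls, and Gm10435 had no ratio to follow. Ratios of EDL over soleus that were close to equal abundance crossed it under median-of-ratios scaling and without the 10 most abundant genes: that of 5031439G07Rik was 1.04 and 1.02 in place of 0.984, and that of 9430020K01Rik 1.03 and 1.01 in place of 0.969. The calls of provisionally named genes at 2-fold numbered 3, 3 and 0 in cardiac muscle over EDL, cardiac muscle over soleus and EDL over soleus under both other scalings, and 3, 4 and 0 under both other read minimums, where 5031439G07Rik could be called in cardiac muscle over soleus. Judged by equal abundance instead of 2-fold, with at least 20 reads in the pair, they numbered 6, 5 and 3 of 12 tested in each pair. All genes called then numbered 112 of 500, 97 of 473 and 60 of 494, against 42, 39 and 9 at 2-fold. With 10 reads in the pair, 21, 21 and 24 of the provisionally named genes were tested. Over the table, 65 of 908 genes were then called at 2-fold in cardiac muscle over EDL. In cardiac muscle over soleus 59 of 897 were called, and in EDL over soleus 11 of 890. Without a minimum, 68, 60 and 11 genes were called among all genes with a read in the pair. The median log2 ratio of cardiac muscle over soleus was -0.07 over genes with at least 10 reads, fewer genes than the 55 behind the value of -0.36. That of cardiac muscle over EDL stayed at -0.37. With all 167 Rik and Gm names that had a read, the share of reads was 2.26% in cardiac muscle and 2.78% in EDL. Scaling without the 10 most abundant genes moved ratios of cardiac muscle over soleus by 0.11 on the log2 scale. By full-length reads, the ratio of Gm14420 was 2.82 for cardiac muscle over EDL and 5.89 for cardiac muscle over soleus. By consensus reads it was 2.44 and 2.45. The full-length ratios are given without intervals, so they are not calls, and the cause of the change was not tested.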
